A study of Homo sapiens with 32 samples.

Results

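The classical non-homologous end-joining machinery was followed here as 10 genes: XRCC5 and XRCC6, PRKDC, DCLRE1C, POLL and POLM, XRCC4, LIG4 and NHEJ1, and TP53BP1. They were chosen by name, with no measured value, as the genes of the count table that carry these symbols, and they make up 10 of the 60332 genes in it. All 10 were found as single entries, and all 10 passed the filter on low counts in each of the 3 parts of the study. The study measured poly-A selected RNA in 32 libraries from 2 human cell lines, in 16 groups of 2 libraries.

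End joining repairs DNA double-strand breaks by tethering and ligating the broken ends directly, without a template. The Ku heterodimer binds the ends and recruits the kinase DNA-PKcs, the nuclease Artemis and specialised polymerases trim or fill them, and a complex of XRCC4, ligase IV and XLF seals them, while 53BP1 limits the resection that would direct breaks into other routes. This pathway operates throughout interphase and carries much of the repair of radiation-induced breaks outside S phase.

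MCF10A, a non-tumorigenic human breast epithelial line, made up the first 2 parts. In the first part, wild-type (WT) cells were left untreated or received 10 Gy of ionising radiation with DMSO and were collected after 3 or 5 days. The other groups of that part, all collected 5 days after 10 Gy, were WT given a CDK1 inhibitor (CDK1i) and the cGAS, STING and XRCC4 knockouts (KO). The second part held 6 groups collected 3 days after 10 Gy: WT, p53 KO, XRCC4 KO, XRCC4 KO with an ATR kinase inhibitor (ATRi), the XRCC4 p53 double knockout (DKO), and DKO with ATRi. The third part used hTERT RPE-1, a telomerase-immortalised retinal pigment epithelial line, and its 3 groups (WT, one labelled WT cGAS, and p53 KO) all received ATRi and 10 Gy and were collected after 3 days.

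Both drugs were added 1 h before irradiation and kept until collection. Each knockout came from single-cell clones of cells given Cas9 and guide by lentivirus, and no label names the clone, so a knockout and the clone that carries it cannot be told apart. Unirradiated cells were present only as MCF10A WT. DMSO is named only for the irradiated WT groups of the first part. The labels leave unstated whether both libraries of a group are separate cultures, so p-values here measure only the spread between these libraries, which may be technical.

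Library totals ran from 5590061 to 18585999 counts. Replicates of the WT groups and of STING KO in the first part differed most, with a chi-square per gene of 21.5 to 45.1 against at most 3.38 in every other group. The common biological coefficient of variation of edgeR was 0.187 in the first part, 0.0361 in the second and 0.0345 in the third, so that equal changes passed the test less readily in the first part. The basal keratin KRT5 lay at 1731 to 8867 FPKM in MCF10A and at 0.302 to 6.08 in RPE-1. In RPE-1 the visual-cycle and pigment markers RPE65, TYR and RLBP1 were at or near 0 (at most 0.022, 0.024 and 0.136 FPKM), while OTX2 lay at 8.24 to 13.4 and MITF at 5.59 to 12.2. Of the targeted genes, MB21D1 (cGAS) fell in cGAS KO by 3.66 on the log2 scale and TMEM173 (STING) fell in STING KO by 2.83 (edgeR adjusted p = 3.7e-05 and 0.00021). In RPE-1, MB21D1 had 6199 and 6158 counts in WT cGAS and 2 and 100 in WT. CDKN1A, a p53 target, fell by 3.27 in MCF10A p53 KO and by 3.41 in RPE-1 p53 KO. XRCC4 RNA did not differ from WT by the test in the libraries labelled XRCC4 KO, at 5 days (-0.28) or at 3 days (0.27), so its counts do not check that label, and "XRCC4 KO" and "DKO" name libraries by their labels throughout.

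In the count table, on hg19, the Ku genes were XRCC5 (ENSG00000079246) at chr2:216972187-217071026 and XRCC6 (ENSG00000196419) at chr22:42017123-42060052. PRKDC carried the identifier ENSG00000253729, and DCLRE1C (ENSG00000152457) lay at chr10:14920819-14996431, an interval shared with SUV39H2. The polymerase genes were POLL (ENSG00000166169) at chr10:103330317-103369425, shared with DPCD, and POLM (ENSG00000122678) at chr7:44111846-44122139. The ligation genes were XRCC4 (ENSG00000152422) at chr5:82348665-82649606, shared with TMEM167A, LIG4 (ENSG00000174405) at chr13:108859787-108870716 and NHEJ1 (ENSG00000187736) at chr2:219940039-220035549, shared with SLC23A3. TP53BP1 (ENSG00000067369) lay at chr15:43650370-43802926, with TUBGCP4 and ZSCAN29. Where an interval is shared, it can be wider than the member, and reads of overlapping genes may not have been told apart.

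Promoters of XRCC4, XRCC6 and POLM are shown because the results in p53 KO and DKO turn on these genes. Each is the 250 bases before the gene's start, 5′ to 3′ on the gene's strand, from RefSeq on GRCh38.p14, with motif matches on either strand in capitals. They and the motifs were chosen after the values were seen. XRCC4 lies at chr5:83077297-83077546 on the plus strand, POLM at chr7:44082531-44082780 on the minus strand and XRCC6 at chr22:41621045-41621294 on the plus strand.
XRCC4: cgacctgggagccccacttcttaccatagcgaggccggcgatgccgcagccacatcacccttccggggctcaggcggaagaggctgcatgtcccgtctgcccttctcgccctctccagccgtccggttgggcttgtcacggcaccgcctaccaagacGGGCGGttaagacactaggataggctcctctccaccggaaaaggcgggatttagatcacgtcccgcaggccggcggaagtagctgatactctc
XRCC6: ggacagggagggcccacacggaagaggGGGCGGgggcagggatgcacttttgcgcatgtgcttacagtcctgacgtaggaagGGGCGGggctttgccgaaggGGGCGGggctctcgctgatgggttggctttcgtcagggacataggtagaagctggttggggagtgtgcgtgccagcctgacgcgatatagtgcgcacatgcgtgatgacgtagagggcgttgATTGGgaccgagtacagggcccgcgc
POLM: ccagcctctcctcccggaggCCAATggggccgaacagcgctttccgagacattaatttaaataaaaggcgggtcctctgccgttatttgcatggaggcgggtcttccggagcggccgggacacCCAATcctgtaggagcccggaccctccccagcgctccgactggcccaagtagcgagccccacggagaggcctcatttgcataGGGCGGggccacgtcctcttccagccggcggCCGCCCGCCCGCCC
Capitals mark the CCAAT box (CCAAT or its reverse complement) and the GC box (GGGCGG or its reverse complement). XRCC4 held 1 GC box, XRCC6 held 1 CCAAT box and 3 GC boxes, and POLM held 2 CCAAT boxes and 4 GC boxes, of which those at its end overlap. Over the 8 members matched in the RefSeq table (PRKDC and XRCC5 were not matched), a GC box was found for 7 of 8 and a CCAAT box for 5 of 8. Those numbers count a member with the letters in any of its windows. By single window, the same letters stood in 10 and 7 of the members' 15 windows, and in 42.6% and 32% of all 35116 promoter windows of that length. The cell cycle homology region TTTGAA (13.3% of windows) and the E2F letters TTTCGCGC (0.439%) and TTTGGCGC (0.55%) were found for 0 of 8 members, which says only that these letters are not in these windows.

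On the scale of deposited FPKM (fragments scaled per kilobase and by library size), which allows genes to be compared, Ku transcripts stood far above the rest. DNA-PKcs transcripts came next in every group except RPE-1 WT cGAS, where they lay at 43.3 FPKM against 43.9 for TP53BP1. XRCC5, the larger Ku subunit, ranged over the 16 groups from 162 ± 5.43 FPKM (SD, n = 2) in XRCC4 KO at 5 days to 302 ± 47.7 in p53 KO. XRCC6, the smaller Ku subunit, ranged from 139 ± 4.49 in XRCC4 KO at 5 days to 346 ± 6.49 in RPE-1 p53 KO, and PRKDC, which encodes DNA-PKcs, from 43.3 ± 5.95 in RPE-1 WT cGAS to 121 ± 2.44 in MCF10A p53 KO. Those 3 genes lay between the 84.1 and 96.8 percentiles of mean FPKM over the genes tested in a part. On counts scaled by library size (CPM), some of these extremes moved. XRCC5 had its lowest mean of the first part in WT at 3 days, 327 CPM against 347 in XRCC4 KO at 5 days. PRKDC had its highest mean of the second part in XRCC4 KO, 748 CPM against 625 in p53 KO. XRCC6 stayed lowest of the first part in XRCC4 KO at 5 days, at 272 CPM.

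The ligation factors were transcribed at much lower levels. XRCC4, the ligase IV scaffold, ranged from 3.95 ± 0.448 FPKM (SD, n = 2) in XRCC4 KO at 5 days to 11.5 ± 0.392 in DKO with ATRi. It lay between the 35.3 and 47.2 percentiles. Its lowest group overlapped untreated WT, at 3.96 ± 0.626 FPKM. On CPM, untreated WT (5.45), WT at 3 days (5.81) and cGAS KO (6.76) had lower XRCC4 means than XRCC4 KO at 5 days. The highest CPM mean of XRCC4 in the second part was in DKO, 14.6 against 13.8 in DKO with ATRi. LIG4, the ligase itself, reached its highest FPKM of 15.3 ± 0.689 in DKO with ATRi, and NHEJ1, which encodes XLF, its highest of 14.9 ± 3.87 in untreated WT. The processing genes varied widely: POLM, DNA polymerase mu, from 9.29 ± 0.615 in RPE-1 p53 KO to 64.0 ± 6.27 in DKO, and DCLRE1C, the Artemis nuclease, from 3.26 ± 0.233 to 21.3 ± 1.72 in MCF10A WT at 3 and 5 days. The same 2 groups of DCLRE1C had means of 8.44 and 11.6 CPM, a difference that was not called, so its range on FPKM is not seen in its counts. POLL, DNA polymerase lambda, lay between 10.3 ± 2.12 (STING KO) and 29.6 ± 2.18 (RPE-1 WT cGAS) FPKM. For TP53BP1, which encodes 53BP1, group means ran from 10.4 ± 0.22 in XRCC4 KO at 5 days to 46.6 ± 4.24 in RPE-1 p53 KO. On CPM its lowest mean of the first part was in STING KO, 52.3 against 54.6 in XRCC4 KO at 5 days. Within RPE-1 its CPM mean was lowest in p53 KO, 138 against 170 in WT.

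The 16 group means of a gene were put in order, and neighbours in that order were checked for overlap of their libraries. The number of the 15 adjacent pairs whose libraries did not overlap was highest for XRCC6, at 7, and was 6 for XRCC4, PRKDC and POLM and 5 for POLL. It was 3 for XRCC5, LIG4 and TP53BP1, 2 for NHEJ1 and 1 for DCLRE1C. No such number was taken over all genes, so these describe the members only. The ratio of the highest to the lowest group mean was 6.90 for POLM, 6.53 for DCLRE1C, 4.48 for TP53BP1 and 1.86 for XRCC5, with the other members between 2.48 and 2.92. These ratios are of FPKM, and the CPM means of DCLRE1C lay between 6.81 and 16.3.

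**Figure D1:**
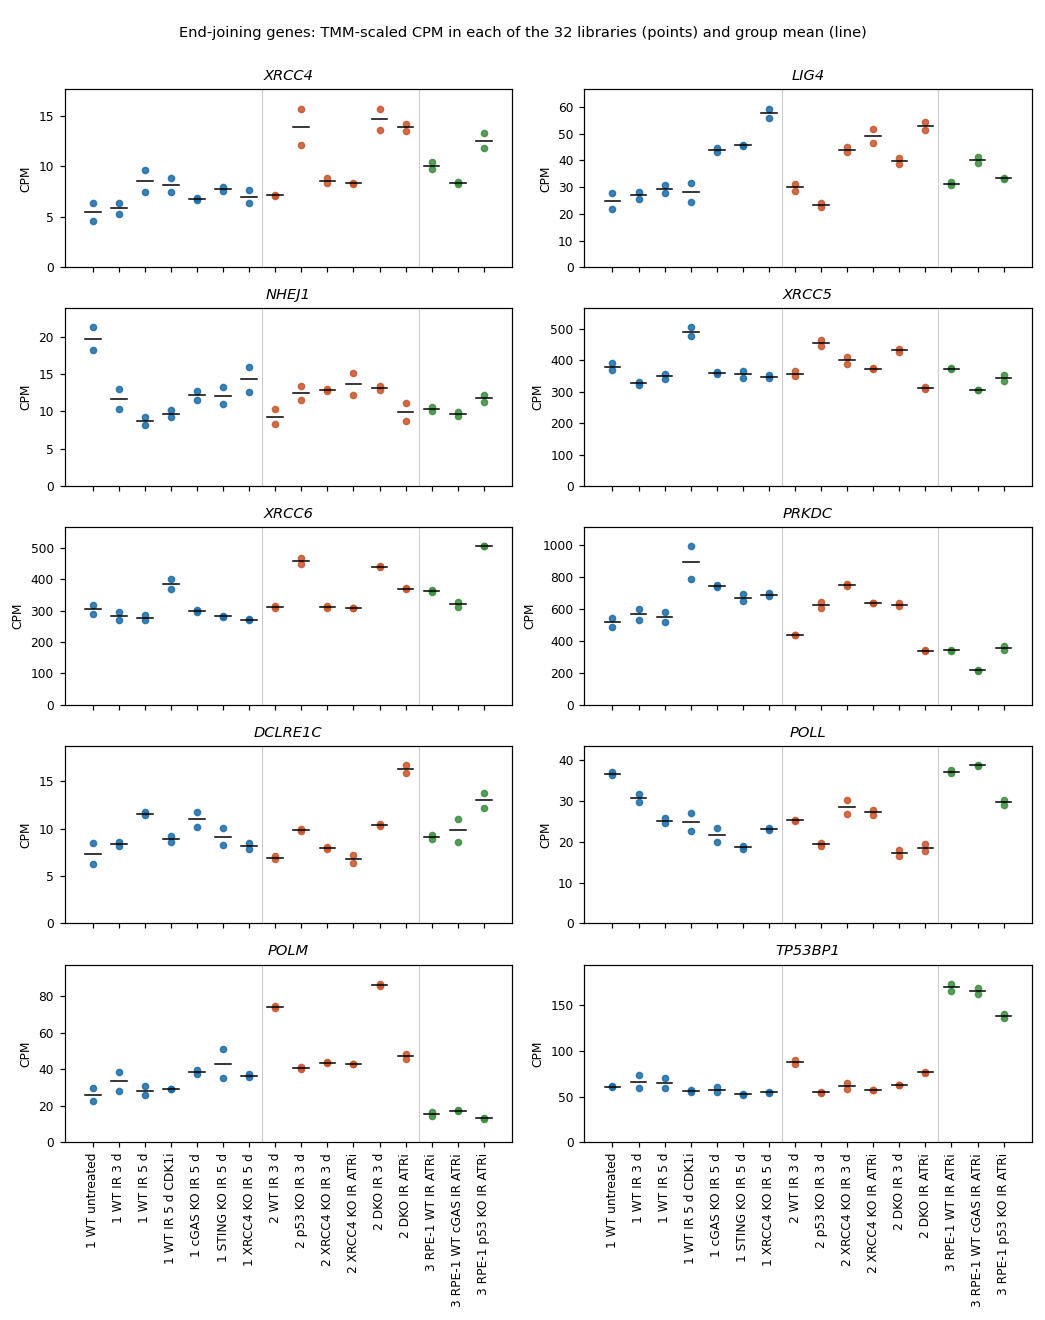
Library-size-scaled counts (CPM, with TMM factors within a part) of each member, on a linear axis, in the 16 groups, with 1 point per library and 1 panel per gene. POLM reached 86.9 and 85.8 CPM in DKO, above every other group, and TP53BP1 lay at 136 to 174 CPM in RPE-1 against 51.4 to 89.7 in MCF10A.

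Tests were made within each part on the deposited counts with edgeR's quasi-likelihood test, and a gene was called where its p-value, adjusted over all genes tested, was under 0.05. Over 17 comparisons, differences between differences among them, and 10 members, 71 of 170 values were called. The share of all genes called ran from 0.0197% to 66.9% in single comparisons and is given with each below. Values below are CPM scaled within a part, the first and second library of a group in that order, and each log2 fold change is given with its standard error. Comparisons of 1 part share libraries, so their calls are not independent of each other.

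In MCF10A WT, irradiated cells with DMSO were compared with untreated cells, which carry no DMSO label, and the share of members called was close to that of all genes. At 3 days 0 members were higher and 1 of 10 was lower than in untreated cells, where 6.4% of all genes tested were called (3.75% higher and 2.65% lower). At 5 days 1 was higher and 2 were lower, where 27.9% of all genes were called (14.6% higher, 13.3% lower). Between 5 and 3 days edgeR called 0 members, where 0.0197% of genes (3 of 15190) were called, 0.0132% higher and 0.00658% lower. In that comparison 4 members (XRCC4, NHEJ1, DCLRE1C and POLL) had an unadjusted edgeR p under 0.05, as did 2075 of the 15190 genes tested. DESeq2 also called 0 members.

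The CDK1 inhibitor raised 3 members at 5 days and lowered none, with 10.7% of genes called (4.27% higher, 6.41% lower). In cGAS KO 1 member was higher, with 12.5% of genes called (6.21% higher, 6.32% lower). In STING KO 1 was higher and 1 lower, with 14.2% called (7.06% higher, 7.1% lower), and in XRCC4 KO at 5 days 2 were higher, with 24% called (11.9% higher, 12.1% lower). Each of these 4 comparisons used the same WT libraries at 5 days.

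In the second part, loss of p53 was accompanied by 6 members higher and 4 lower, all 10 called, where 52.7% of genes were called (25.8% higher, 26.9% lower). The median log2 fold change of the 10 was 0.39, beside 0.01 over all genes. On FPKM (limma) 5 of the 10 were called in p53 KO, 4 of 10 for ATRi in DKO and 2 of 10 for either difference between backgrounds. DESeq2 called 9 of the 10 in p53 KO. The shares of all genes given here are those of edgeR and cannot be set beside these FPKM and DESeq2 numbers. Whether a lower number is particular to the members was not tested. XRCC4 KO at 3 days had 4 higher and 2 lower, beside 56.5% of genes called (28.6% higher, 27.9% lower). DKO against XRCC4 KO had 5 higher and 2 lower, beside 65.1% (32.3% higher, 32.7% lower), and DKO against p53 KO had 3 higher and none lower, beside 49.2% (24.3% higher, 24.9% lower). ATRi lowered 1 member in XRCC4 KO, beside 17.9% of genes called (7.16% higher, 10.8% lower), while in DKO it raised 3 and lowered 5, beside 57.3% (25.2% higher, 32% lower).

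Differences between differences were tested too. The ATRi effect in DKO differed from that in XRCC4 KO for 8 members, 3 with a higher and 5 with a lower value in DKO, beside 34.6% of genes (13.3% higher, 21.3% lower). The effect of the XRCC4 KO label on a p53 KO background differed from that on WT for 5 members, 2 higher and 3 lower, beside 44.3% of genes (21.3% higher, 23.1% lower). In RPE-1, p53 KO had 3 members higher and 4 lower than WT, beside 66.9% of genes (34.3% higher, 32.6% lower), and WT cGAS had 1 higher and 3 lower, beside 60.2% (30% higher, 30.2% lower). The members' share was 100% in MCF10A p53 KO and 80% for the difference of the ATRi effects, where it stood furthest above that of all genes, and in most other comparisons it was near or below it.

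**Figure D2:**
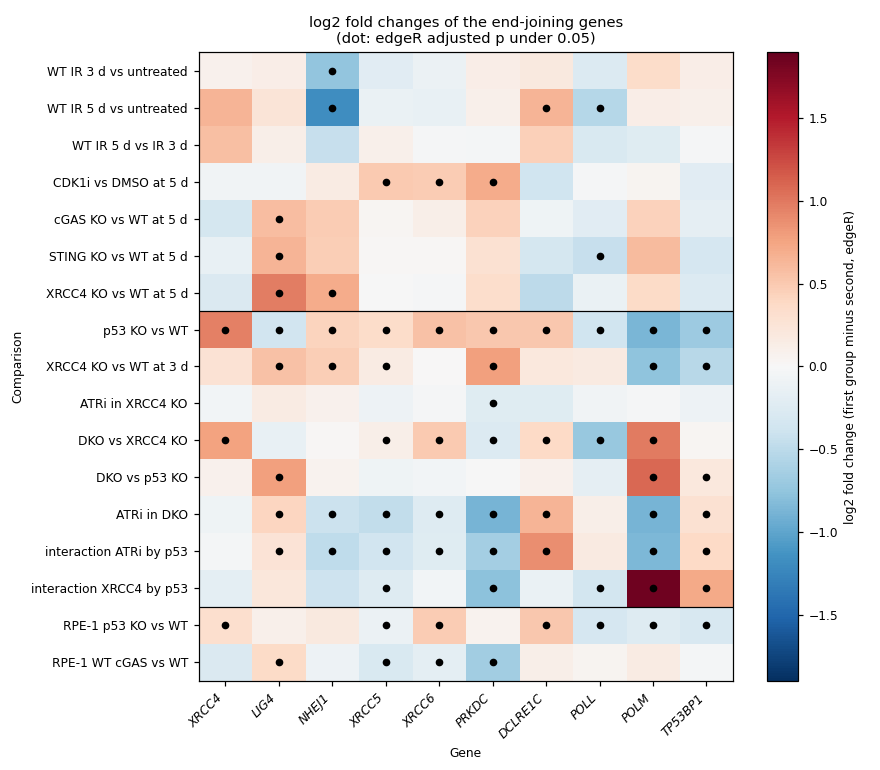
Log2 fold change from edgeR (colour scale) of the 10 members (columns) in the 17 comparisons (vertical axis), with a dot where the adjusted p was under 0.05. POLM holds both the highest called value, 1.85 for XRCC4 KO by p53, and called falls of as much as 0.88 (ATRi in DKO), whereas POLL has no called rise and XRCC4 and DCLRE1C have no called fall.

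Both Ku subunits rose together under CDK1i and in MCF10A p53 KO, and moved apart in RPE-1 p53 KO. Under CDK1i, XRCC5 went from 340.2 and 358 CPM to 478 and 505, a change of 0.49 ± 0.0888 on the log2 scale (edgeR adjusted p = 0.00986). XRCC6 went from 269 and 285 CPM to 370.5 and 401, which is 0.48 ± 0.0933 (edgeR adjusted p = 0.0129). Neither gene's libraries overlapped between inhibitor and DMSO. Both calls were lost without WT replicate 1 at 5 days (adjusted p = 0.0862 and 0.106) or without CDK1i replicate 2 (0.0538 and 0.0672). On FPKM neither was called, with XRCC5 at 0.48 and XRCC6 at 0.34 (limma adjusted p = 0.0547 and 0.165, pseudocount 1, as for all FPKM values below).

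In p53 KO, XRCC6 stood at 448 and 467 CPM against 314 and 310.2 in WT, a log2 difference of 0.55 ± 0.0379 (edgeR adjusted p = 3.74e-14). XRCC5 stood at 447 and 465 CPM against 349 and 365, a smaller rise of 0.35 ± 0.04 (edgeR adjusted p = 4.66e-09). In DKO against XRCC4 KO, XRCC6 was higher by 0.50 ± 0.038 (edgeR adjusted p = 3.24e-13) and XRCC5 by 0.11 ± 0.0399 (adjusted p = 0.0165). The XRCC5 call was lost without XRCC4 KO replicate 1, DKO replicate 1 or DKO replicate 2 (adjusted p = 0.292, 0.176 and 0.0565).

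ATRi lowered both subunits in DKO. XRCC5 went from 436 and 427 CPM to 309 and 316 and fell by 0.47 on the log2 scale (SE 0.0399, edgeR adjusted p = 8.6e-12), and XRCC6 went from 440.2 and 441 to 370.1 and 372 and fell by 0.25 (SE 0.0372, adjusted p = 8.75e-07). In XRCC4 KO, which lacks the p53 KO label, the same drug left XRCC6 at 309.7 and 309 CPM against 310.1 and 315, and XRCC5 at 372 and 375 against 389 and 411, neither called. The difference between the backgrounds was -0.37 ± 0.0567 for XRCC5 (edgeR adjusted p = 3.83e-06) and -0.23 ± 0.0538 for XRCC6 (adjusted p = 0.000869), of which neither was called on FPKM, where they became -0.19 and 0.000935. The fall of XRCC6 in DKO was also lost on FPKM, where it stood at -0.00 (limma adjusted p = 0.991).

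In RPE-1 p53 KO, XRCC6 reached 507 and 507 CPM against 367 and 359.5 in WT, a rise of 0.48 ± 0.0409 (edgeR adjusted p = 2.89e-10). XRCC5 lay at 354 and 335 against 374 and 371, a log2 difference of -0.11 ± 0.0414 (adjusted p = 0.0199) that turned to 0.16 on FPKM and was not called without WT replicate 1 (adjusted p = 0.0607) or p53 KO replicate 2 (0.203). In CPM, the ratio of XRCC5 to XRCC6 was 1.02 and 1.03 in RPE-1 WT and 0.70 and 0.66 in RPE-1 p53 KO. It was 1.11 and 1.18 in MCF10A WT of the second part, 1.00 and 1.00 in p53 KO, and 0.84 and 0.85 in DKO with ATRi. Over all 32 libraries the ratio had a median of 1.19 and a range of 0.661 to 1.30, and its 2 lowest values were those of RPE-1 p53 KO. In RPE-1 WT cGAS both subunits fell, XRCC5 by 0.28 and XRCC6 by 0.18 on the log2 scale (edgeR adjusted p = 2.4e-06 and 0.000601), neither called on FPKM (-0.09 and -0.08).

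PRKDC, the catalytic kinase that Ku holds at the break, changed under both drugs and in both directions. Under CDK1i it rose from 519 and 579 CPM to 788 and 992, a log2 difference of 0.70 ± 0.13 or 1.62-fold (edgeR adjusted p = 0.011), again lost without WT replicate 1 at 5 days (adjusted p = 0.0934) or CDK1i replicate 2 (0.0635). In the second part WT had 434 and 438 CPM, p53 KO 606 and 643, XRCC4 KO 740.2 and 756, and DKO 634 and 615. So PRKDC was 1.72-fold higher in XRCC4 KO than in WT (0.78 ± 0.0384, edgeR adjusted p = 5.62e-18) and higher in p53 KO by 0.52 ± 0.0383 (adjusted p = 2.34e-13). The 2 rises did not add: DKO against p53 KO was at -0.00 ± 0.0377, and the test of the difference between the backgrounds gave -0.78 ± 0.0537 (edgeR adjusted p = 1.1e-13).

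With ATRi, PRKDC in DKO came to 334 and 342 CPM, a fall of 0.89 on the log2 scale or 1.85-fold (SE 0.0384, edgeR adjusted p = 3.23e-19), and below every other library of the second part. In XRCC4 KO it came to 634 and 636 CPM, a fall of 0.24 (SE 0.0378, adjusted p = 1.58e-05). The fall was larger in DKO by 0.65 on the log2 scale (value -0.65 ± 0.0538, edgeR adjusted p = 2.08e-11), a difference that was -0.22 and not called on FPKM (limma adjusted p = 0.072). In RPE-1, PRKDC lay at 344 and 335 CPM in WT and at 219 and 210.1 in WT cGAS, 1.58-fold lower (-0.66 ± 0.0455, edgeR adjusted p = 6.3e-12). RPE-1 p53 KO, at 369.8 and 342, overlapped WT. At 5 days the libraries labelled XRCC4 KO had 680.4 and 696 CPM against 519 and 579 in WT, a value of 0.33 ± 0.129 that was not called (adjusted p = 0.0906), and cGAS KO had 747 and 735 (0.43 ± 0.13, adjusted p = 0.0529).

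DCLRE1C, whose product opens hairpins and trims ends once bound by DNA-PKcs, had 48 to 363 counts per library. It rose in WT at 5 days to 11.5 and 11.7 CPM from 8.49 and 6.27 in untreated cells, a log2 difference of 0.65 ± 0.186 (edgeR adjusted p = 0.0265), lost without untreated replicate 2 (adjusted p = 0.132) or without WT replicate 1 or 2 at 5 days (0.11 and 0.095). In p53 KO it rose to 9.73 and 9.99 CPM from 6.78 and 7.08 (0.50 ± 0.128, adjusted p = 0.00126), and in RPE-1 p53 KO to 13.8 and 12.2 from 9.36 and 8.89 (0.51 ± 0.128, edgeR adjusted p = 0.00122). The highest libraries of the second part were DKO with ATRi, at 15.9 and 16.8 CPM against 10.5 and 10.3 in DKO. That rise of 0.65 ± 0.111 (edgeR adjusted p = 7.88e-06) exceeded the uncalled value of -0.23 ± 0.136 in XRCC4 KO by 0.88 ± 0.176 (adjusted p = 0.000172).

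The deposited FPKM of DCLRE1C did not follow its counts. In ratio to CPM it ran from 0.302 to 2.25 over the 32 libraries, a span of 7.47-fold, while the spans of the other members lay between 1.49-fold for XRCC4 and 2.27-fold for PRKDC. Libraries of 1 group could differ: the ratio was 1.11 and 2.25 in untreated WT, 0.967 and 2.13 in p53 KO and 1.08 and 0.302 in XRCC4 KO at 5 days. As a result several directions of DCLRE1C turned on FPKM (limma, pseudocount 1): ATRi in DKO became -0.26, the ATRi difference between backgrounds -1.80, XRCC4 KO at 3 days -1.22, and ATRi in XRCC4 KO 1.54. The values for XRCC4 KO at 3 days and ATRi in XRCC4 KO were called on FPKM (limma adjusted p = 0.0212 and 0.042). Falls in STING KO (-2.25) and XRCC4 KO at 5 days (-1.92) were called on FPKM too (limma adjusted p = 0.0171 and 0.0191). None of these 4 was called by edgeR. The rises in WT at 5 days, p53 KO and RPE-1 p53 KO kept their sign on FPKM (0.82, 0.55 and 0.48) and were not called. The interval of DCLRE1C in the count table is shared with SUV39H2, and the part of this in the FPKM was not tested.

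**Figure D3:**
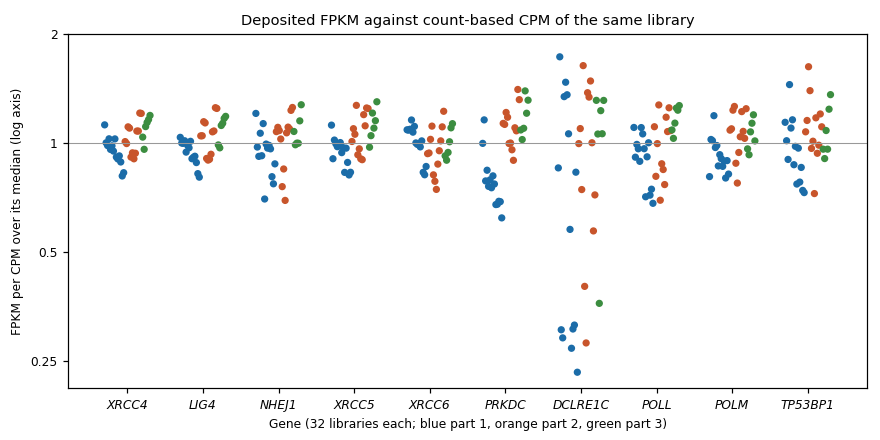
FPKM divided by CPM for each member and library, over the gene's median ratio, on a log axis, with 1 point per library. The points of DCLRE1C spread over 7.47-fold and those of XRCC4 over 1.49-fold.

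The 2 gap-filling polymerases moved differently. POLL, which fills short gaps at aligned ends, had no called rise in any of the 17 comparisons and 6 called falls. It fell in WT at 5 days from 36.4 and 37.0 CPM to 24.5 and 25.8 (-0.54 ± 0.122, edgeR adjusted p = 0.00931), a call lost without WT replicate 1 at 5 days (adjusted p = 0.0767). In the second part DKO had 16.5 and 17.9 CPM against 30.1 and 26.7 in XRCC4 KO (-0.73 ± 0.0851, edgeR adjusted p = 5.32e-09). In p53 KO POLL fell from 25.3 and 25.2 CPM to 19.8 and 19.1 (-0.38 ± 0.0846, adjusted p = 0.000324), and in RPE-1 p53 KO from 36.7 and 37.5 to 29 and 30.2 (-0.33 ± 0.0692, edgeR adjusted p = 0.000231). On FPKM none of the 6 falls was called: DKO against XRCC4 KO became -0.18 (limma adjusted p = 0.361), p53 KO -0.12 (0.576) and RPE-1 p53 KO -0.08 (0.452), while WT at 5 days stayed at -0.54 (0.115). ATRi gave edgeR values of -0.06 and 0.11 in XRCC4 KO and DKO, neither called. The called fall in STING KO (-0.43 ± 0.124, edgeR adjusted p = 0.0418) was lost when any 1 of the 4 libraries was left out (adjusted p = 0.118 to 0.195).

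POLM, a polymerase that can extend ends with little or no base pairing, showed the largest difference of differences among the members. WT libraries of the second part had 73.6 and 74.5 CPM, p53 KO 41.2 and 40.1, XRCC4 KO 43.9 and 43.3, and DKO 86.9 and 85.8. Each single knockout was thus lower than WT, by 0.86 on the log2 scale in p53 KO (SE 0.0568, edgeR adjusted p = 1.25e-14) and by 0.77 in XRCC4 KO (SE 0.0575, adjusted p = 3.03e-13), whereas DKO was 2.12-fold higher than p53 KO (1.09 ± 0.0553, edgeR adjusted p = 2.66e-17) and 1.98-fold higher than XRCC4 KO (0.99 ± 0.056, adjusted p = 1.28e-16). The difference between the backgrounds was 1.85 ± 0.0798, or 3.61-fold (edgeR adjusted p = 5.74e-19). ATRi brought POLM in DKO to 48.2 and 45.7 CPM, 1.84-fold lower (-0.88 ± 0.0531, adjusted p = 1.69e-15), and left it at 43.1 and 42.8 in XRCC4 KO (-0.02 ± 0.0619, not called). At 5 days, in the first part, XRCC4 KO had 35.6 and 37.3 CPM against 25.8 and 30.7 in WT, so that the value there, 0.37 ± 0.201, was of the opposite sign and not called (edgeR adjusted p = 0.212).

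XRCC4, the scaffold that stabilises ligase IV, was not called in libraries labelled XRCC4 KO, where its mean was below WT at 5 days and above it at 3 days. At 5 days they had 7.63 and 6.37 CPM against 9.62 and 7.41 in WT, overlapping, with a value of -0.28 ± 0.226 (edgeR adjusted p = 0.397). At 3 days they had 8.80 and 8.36 against 7.06 and 7.14 (0.27 ± 0.144, adjusted p = 0.106). The gene instead followed the p53 label: p53 KO had 12.1 and 15.7 CPM, 1.94-fold above WT (0.96 ± 0.132, edgeR adjusted p = 2.08e-07), and DKO had 13.6 and 15.7, above XRCC4 KO by 0.77 ± 0.128 (adjusted p = 3.68e-06). In RPE-1 p53 KO it lay at 13.3 and 11.8 CPM against 9.71 and 10.4, a rise of 0.31 ± 0.117 (edgeR adjusted p = 0.022) that was lost without WT replicate 1 (adjusted p = 0.148), WT replicate 2 (0.0542) or p53 KO replicate 1 (0.194). These values rest on 37 to 293 counts per library.

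LIG4, the ligase, rose in every comparison of a knockout labelled cGAS, STING or XRCC4 with WT. At 5 days WT had 31.0 and 27.6 CPM, cGAS KO 43.3 and 44.6, STING KO 45.7 and 45.6, and XRCC4 KO 59.5 and 56.0. The rise in XRCC4 KO was 1.97-fold (0.98 ± 0.145, edgeR adjusted p = 0.00141), and those in cGAS KO (0.58 ± 0.144, adjusted p = 0.026) and STING KO (0.64 ± 0.144, adjusted p = 0.0162) were lost when any 1 of their 4 libraries was left out (adjusted p = 0.0734 to 0.158 and 0.0516 to 0.115). At 3 days XRCC4 KO had 45.1 and 43.1 CPM against 31.3 and 28.7 in WT (0.56 ± 0.0747, edgeR adjusted p = 9.75e-08). The DKO libraries, at 40.9 and 38.7, stood 1.71-fold above the 22.6 and 24.0 of p53 KO (0.78 ± 0.076, adjusted p = 2.37e-10). p53 KO gave the only called fall of LIG4 among the 17 comparisons (-0.36 ± 0.0802, edgeR adjusted p = 0.000266), which was -0.21 and not called on FPKM (limma adjusted p = 0.116), nor were the rises in cGAS KO and STING KO (0.178 and 0.129). ATRi raised LIG4 in DKO to 54.6 and 51.5 CPM (0.41 ± 0.067, adjusted p = 3.48e-06), and in RPE-1 it was higher in WT cGAS (41.3 and 39.1) than in WT (31.9 and 30.8), by 0.36 ± 0.0697 (edgeR adjusted p = 8.88e-05).

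NHEJ1, which encodes the XRCC4-like factor XLF, had the largest fall after irradiation among the members. Untreated WT had 21.3 and 18.2 CPM, WT at 3 days 13.1 and 10.3, and WT at 5 days 9.21 and 8.24, with no overlap. It was 1.68-fold lower at 3 days (-0.74 ± 0.187, edgeR adjusted p = 0.043) and 2.27-fold lower at 5 days (-1.18 ± 0.186, adjusted p = 0.00198). The call at 3 days was lost when any 1 of the 4 libraries was left out (adjusted p = 0.0533 to 0.22), and that at 5 days held with each library left out. Relative to irradiated WT, NHEJ1 was higher in XRCC4 KO at 5 days (12.6 and 16 CPM, 0.71 ± 0.187, edgeR adjusted p = 0.0208) and at 3 days (12.8 and 13.1 against 8.31 and 10.3, 0.47 ± 0.138, adjusted p = 0.00453). It was also higher in p53 KO (13.4 and 11.6, 0.42 ± 0.136, edgeR adjusted p = 0.00938), and without WT replicate 1 these 3 calls had an adjusted p of 0.0611, 0.0836 and 0.152. The call at 5 days was also lost without WT replicate 2 (0.127) or XRCC4 KO replicate 2 (0.163), and that in p53 KO without p53 KO replicate 1 (0.137). On FPKM the values were 0.34, 0.03 and 0.34 for XRCC4 KO at 5 and 3 days and p53 KO, and -0.82 for WT at 3 days, none called, while the fall at 5 days was called. Its counts were not whole numbers in 31 of 32 libraries, and its interval on chr2 is shared with SLC23A3.

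TP53BP1, which protects ends from resection, was lower in each single knockout of the second part. WT had 85.8 and 89.7 CPM, p53 KO 54.9 and 54.4 (-0.68 ± 0.0558, edgeR adjusted p = 2.55e-12), and XRCC4 KO 57.9 and 64.7 (-0.52 ± 0.056, adjusted p = 1.24e-09). DKO had 62.6 and 62.9 CPM, so that the label XRCC4 KO went with a value of 0.20 ± 0.0573 on the p53 KO background (edgeR adjusted p = 0.00418), which differed from that on WT by 0.72 ± 0.0801 (adjusted p = 5.47e-09). On FPKM the p53 KO value was -0.24 and the difference between backgrounds 0.23, neither called (limma adjusted p = 0.383 and 0.594), and the DKO value turned to -0.43. ATRi raised TP53BP1 in DKO to 77.5 and 75.4 CPM (0.28 ± 0.0541, edgeR adjusted p = 3.72e-05), with 0.52 on FPKM and no call (limma adjusted p = 0.0645). In RPE-1 p53 KO it lay at 136 and 141 CPM against 166 and 174 in WT (-0.30 ± 0.046, adjusted p = 4.08e-06), a direction that turned to 0.17 on FPKM.

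Genes within 10 Mb of a member on hg19 were set beside it, a window chosen after the values were seen. Around POLM, 81 neighbouring genes had a median log2 fold change of -0.41 in p53 KO (5 called higher, 47 lower), -0.30 in XRCC4 KO at 3 days (14 and 34), and 0.52 in DKO against p53 KO (50 and 6), against 0.01, -0.01 and -0.00 over all genes. Under ATRi in DKO, where POLM was at -0.88, their median was 0.00 (23 higher, 30 lower). The 79 neighbours of LIG4 had a median of 0.65 in DKO against p53 KO (58 higher, 1 lower) and 0.47 in XRCC4 KO at 3 days (39 and 6). In DKO against XRCC4 KO their median was 0.46, where LIG4 itself was at -0.15 and not called, and in p53 KO, where LIG4 fell by 0.36, it was 0.14 (25 higher, 15 lower).

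The 50 neighbours of PRKDC had a median of 0.43 in XRCC4 KO at 3 days (35 higher, 8 lower) and -0.36 in DKO against XRCC4 KO (6 and 35). They stood at 0.07 in p53 KO, at -0.15 under ATRi in DKO and at -0.02 under CDK1i, where PRKDC was at 0.52, -0.89 and 0.70. In the first part the medians around LIG4 were 0.28 in cGAS KO, 0.32 in STING KO and 0.28 in XRCC4 KO, and those around PRKDC were 0.34, 0.41 and 0.36. The neighbours of XRCC4 and XRCC6 in p53 KO had medians of 0.04 and -0.06, while the members stood at 0.96 and 0.55. Those of DCLRE1C had medians of 0.21 in p53 KO (31 higher, 14 lower) and 0.28 in RPE-1 p53 KO (36 and 17), where DCLRE1C stood at 0.50 and 0.51. For POLM, LIG4 and PRKDC, genes around the member thus had medians of the member's sign in some knockout comparisons and not in others, and the part of this in the members' values was not tested.

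**Figure D4:**
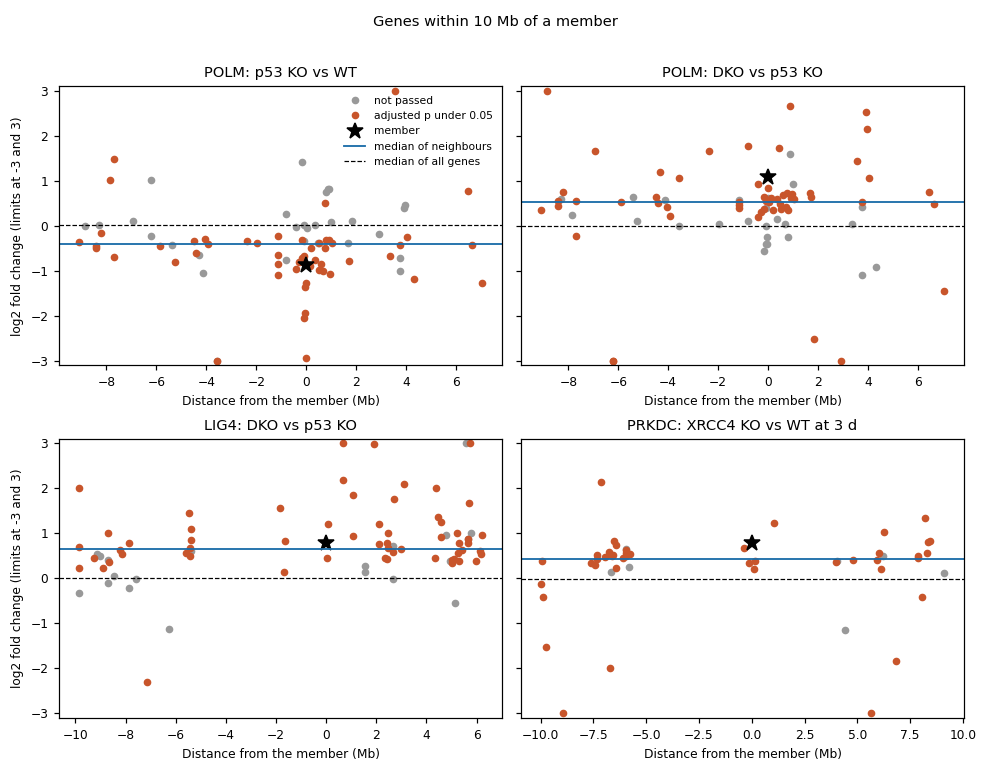
Log2 fold change (edgeR, clipped at 3 in either direction) of every tested gene within 10 Mb of a member against its distance from the member in Mb, for POLM in p53 KO and in DKO, LIG4 in DKO and PRKDC in XRCC4 KO, with the member marked. The neighbours' medians are -0.41, 0.52, 0.65 and 0.43.

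RNA of G2-M genes differed between the same groups. The mean log2 CPM of 12 G2-M genes (among them MKI67, TOP2A and CCNB1) was 5.33 and 5.29 in WT of the second part, 7.41 and 7.50 in p53 KO, 7.81 and 7.80 in DKO, and 6.66 and 6.67 in DKO with ATRi. It was 4.78 and 4.71 in XRCC4 KO, where 11 of 12 were called lower than in WT, and 3.52 and 3.41 with ATRi. All 12 were called higher in p53 KO, in DKO against XRCC4 KO or p53 KO, and in RPE-1 p53 KO, and all 12 lower under ATRi in XRCC4 KO and in DKO and in RPE-1 WT cGAS. Under CDK1i 1 of 12 was called higher, with libraries at 5.62 and 6.95 against 4.48 and 4.99 in DMSO. In bulk RNA a change in the share of cells in a phase and a change of RNA per cell cannot be told apart.

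Across the 32 libraries, with log2 CPM centred on the mean of each part, XRCC6 followed the G2-M mean most closely of the members, with Pearson r = 0.87 (0.72 over the 14 libraries of the first part, 0.92 over the 12 of the second). XRCC4 had r = 0.71 (0.39 and 0.84), DCLRE1C 0.53 (0.19 and 0.66) and XRCC5 0.47 (0.60 and 0.34). POLL ran opposite at -0.53 (-0.06 and -0.91), as did LIG4 at -0.46 (-0.55 and -0.40). NHEJ1 had r = -0.19 (-0.53 and -0.09), PRKDC 0.21, POLM 0.08 and TP53BP1 -0.10. These libraries share groups and parts, so the values are descriptions, and the part of the G2-M level in the members' changes was not tested. DKO against p53 KO, where POLM and LIG4 rose, left XRCC6 at -0.05 and XRCC4 at 0.08.

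**Figure D5:**
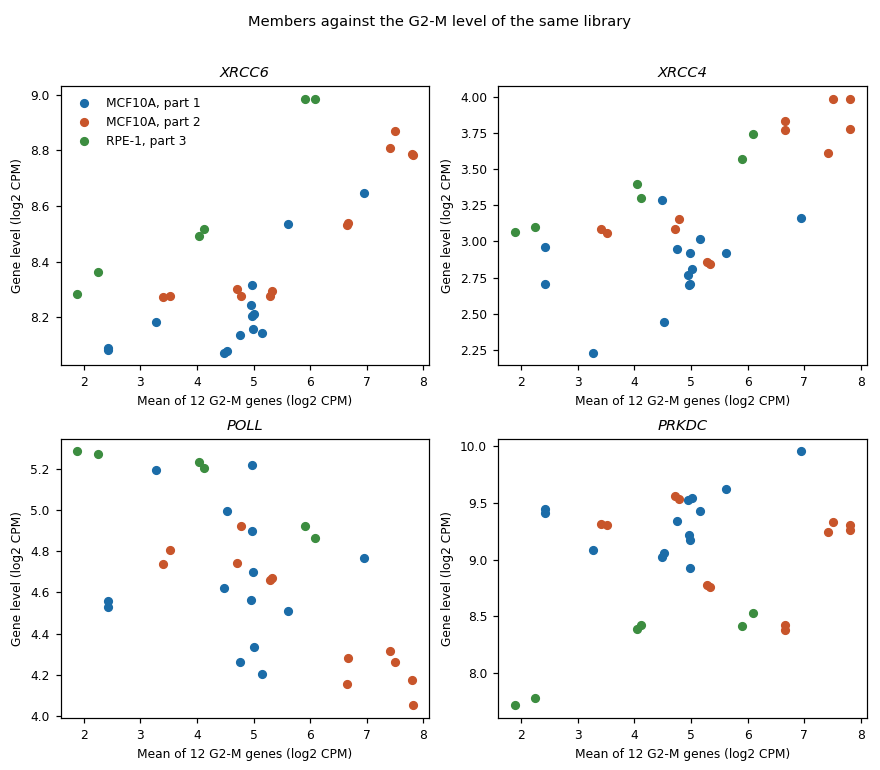
Log2 CPM of XRCC6, XRCC4, POLL and PRKDC against the mean log2 CPM of 12 G2-M genes, 1 point per library, coloured by part. XRCC6 rises along the axis (r = 0.87 over 32 libraries after centring on each part) and PRKDC shows little trend (r = 0.21).

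The members did not move as 1 block. Over their 45 pairs, the same centred values gave a median r of -0.07, from -0.75 for XRCC4 with POLL to 0.73 for XRCC5 with PRKDC, and 4 pairs were over 0.5. The genes most alike each member, among 10524 searched over 32 libraries, differed from member to member. For XRCC6 they were CACYBP (r = 0.96), VRK1 (0.95) and PTGES3 (0.95). For XRCC5 they were MTHFD1 (0.93), URB2 (0.90) and RUVBL1 (0.88), and for PRKDC PA2G4 (0.93), NCBP1 (0.93) and CCT3 (0.88). LIG4 was closest to CDC34 (0.93), VRK3 (0.92) and ZNF800 (0.91), XRCC4 to NUP50 (0.87), GEN1 (0.86) and CCDC77 (0.86), and NHEJ1 to PIR (0.84), MRPS5 (0.83) and GLUD1 (0.80). POLL was closest to SLC35E2B (0.92), PACS2 (0.90) and CCDC57 (0.88), DCLRE1C to GADD45B (0.84), SETD2 (0.83) and JUN (0.81), and TP53BP1 to MAGED2 (0.77), DLGAP4 (0.74) and STMN3 (0.74). The 3 genes closest to POLM, STARD3NL (0.78), RAC1 (0.72) and RALA (0.71), all lie on chromosome 7, as POLM does.

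Accessory end-joining genes, of which 9 were tested, were called in both directions. In p53 KO 2 were higher and 1 lower, 33.3% of the list against 52.7% of all genes: WRN, a helicase and exonuclease, by 0.40, and PAXX, a Ku-binding paralogue of XRCC4, by 0.26, with C7orf49 (CYREN, a Ku-binding regulator) at -0.69. XRCC4 KO at 3 days had 5 higher and 1 lower (66.7% against 56.5%), among them WRN at 0.72 and APLF, a Ku-binding scaffold, at 0.60. DKO against p53 KO had 4 higher and 1 lower (55.6% against 49.2%), among them APLF at 0.55. ATRi in DKO had 1 higher and 6 lower (77.8% against 57.3%), led by SETMAR at -0.59 and PAXX at -0.50. After irradiation PAXX fell beside NHEJ1, to -0.75 at 3 days and -0.75 at 5 days, where WRN stood at -0.55. IFFO1 was also called in WT at 5 days (2.04) and in DKO against p53 KO (1.43), but at 0.101 to 1.54 CPM over the first part and 0.14 to 3.70 over the second, so that these folds rest on few counts.

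Of 15 genes of the 53BP1 pathway, 10 were higher and 3 lower in p53 KO (86.7% against 52.7% of all genes), where TP53BP1 itself fell. The mediator MDC1 was at 1.19, the histone H2AFX at 0.98 and the shieldin subunit MAD2L2 at 0.85, against L3MBTL1 at -0.64, ATM at -0.35 and KDM4A at -0.30. DKO against XRCC4 KO had 11 higher and 2 lower (86.7% against 65.1%), again with MAD2L2 (1.48), H2AFX (1.36) and MDC1 (1.22) higher and ATM (-0.82) lower. XRCC4 KO at 3 days had 2 higher (ATM 0.77, REV3L 0.39) and 6 lower, led by L3MBTL1 at -3.37. That was 53.3% of the list against 56.5% of all genes. ATRi in DKO had 1 higher and 7 lower (53.3% against 57.3%), and in RPE-1 p53 KO 6 were higher and 6 lower (80% against 66.9%).

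Genes of alternative end joining, the resection-dependent route that uses DNA polymerase theta, were mostly higher in p53 KO. Of 13 tested, 12 were higher and none lower (92.3% against 52.7% of all genes, of which 25.8% were higher), led by the exonuclease EXO1 at 2.15, POLQ at 2.05 and the flap nuclease FEN1 at 1.35. DKO against XRCC4 KO had 8 higher and 2 lower, 76.9% of the list against 65.1% of all genes (EXO1 2.73, POLQ 2.72, PARP2 1.70, with RAD50 at -0.38 and NBN at -0.34). ATRi lowered 8 of 13 in XRCC4 KO (EXO1 -1.83, POLQ -1.57) and 10 of 13 in DKO (EXO1 -1.18, POLQ -1.10), raising none in either (61.5% against 17.9% and 76.9% against 57.3% of all genes). In XRCC4 KO at 3 days 5 were higher, led by the nuclease complex subunits RAD50 at 1.17, NBN at 0.96 and MRE11 at 0.75, and 4 were lower, with POLQ at -0.32 (69.2% against 56.5%). RPE-1 p53 KO had 6 higher (POLQ 2.02, EXO1 1.24) and 3 lower, and RPE-1 WT cGAS had 1 higher and 6 lower (EXO1 -3.14, POLQ -1.91), which is 69.2% against 66.9% and 53.8% against 60.2% of all genes. The median of the 12 G2-M genes was 2.20 in p53 KO, 3.07 in DKO against XRCC4 KO, -1.46 and -1.15 under ATRi in XRCC4 KO and DKO, and -0.57 in XRCC4 KO at 3 days, and their part in the values of EXO1 and POLQ was not tested.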

How the data were processed

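RNA of 32 libraries was measured in 16 groups of 2. The authors deposited estimated counts per gene, not normalised, of which 96 to 97.3% per library are whole numbers, and FPKM values, which are divided by transcript length and library size. Tools named in the submitters' processing notes, without roles, are STAR, Cuffnorm, DESeq2, bcl2fastq and FastQC, with the build hg19. The annotation version and the strand setting of counting are not given in the sources used here. Counts and FPKM could therefore differ in how they treat overlapping genes. Gene coordinates come from the count table (hg19), and promoters are from RefSeq on GRCh38.p14.

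Counts were rounded and tested with edgeR 4.0.16 in R 4.3.3 (TMM, filterByExpr by group, robust quasi-likelihood fit of all groups of a part, the 3 parts apart), with Benjamini-Hochberg adjustment over the 15190, 16632 or 15469 genes tested. Standard errors are the log2 fold change over the square root of F. With 2 libraries a group, no permutation test of a single gene can reach the threshold of 0.05. DESeq2 1.42.0 on the counts and limma 3.58.1 on log2 of FPKM plus 1 or 0.1 served as alternatives, beside other filters, size factors, fits of only the groups compared and leaving out libraries. On simulated counts the main test recovered 54% of genes changed by 2-fold and 99% of those changed by 4-fold in WT at 3 days against untreated (100 genes each among 15190), 97% and 100% in p53 KO (16632) and 99% and 100% in RPE-1 p53 KO (15469). The simulation gave all genes and groups of a part the same dispersion and changed only genes above a minimum expected count. In the data, untreated WT and WT at 3 days had a replicate chi-square per gene of 35.0 and 21.5. In cGAS KO and XRCC4 KO of that part it was 2.95 and 3.38, so the simulated recovery may not hold for WT at 3 days against untreated. Figures were drawn with matplotlib 3.10.9 and tables handled with pandas 2.3.3.

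Genes named are the members, up to 3 called genes per pathway list and direction with the largest change, the 3 genes most alike each member (mean of at least 5 CPM), and the targeted and cell-cycle genes. The values of 1 accessory gene are not reported here. The members and lists were chosen with earlier results of these data known. Library totals, 5590061 to 18585999 counts, gave 37 to 293 counts for XRCC4 and 48 to 363 for DCLRE1C, which limits the precision of those genes. Every deposited column was matched to a sample.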

Additional observations from a re-analysis of the deposited data

Results flagged for a closer look

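For 8 members the ATRi effect differed between DKO and XRCC4 KO by a test of the difference itself (edgeR). The log2 differences were 0.25 for LIG4 (adjusted p = 0.0406), -0.49 for NHEJ1 (0.0382), -0.37 for XRCC5 (3.83e-06), -0.23 for XRCC6 (0.000869), -0.65 for PRKDC (2.08e-11), 0.88 for DCLRE1C (0.000172), -0.86 for POLM (4.09e-10) and 0.38 for TP53BP1 (0.000305). The calls of LIG4 and NHEJ1 were each lost without any 1 of 6 of the 8 libraries (edgeR adjusted p up to 0.223 and 0.237).

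For 5 members the effect of the XRCC4 KO label differed between the p53 KO and WT backgrounds by the same kind of test. The differences were -0.24 for XRCC5 (edgeR adjusted p = 0.000675), -0.78 for PRKDC (1.1e-13), -0.35 for POLL (0.0177), 1.85 for POLM (5.74e-19) and 0.72 for TP53BP1 (5.47e-09). The POLL call was lost without XRCC4 KO replicate 1 (adjusted p = 0.123) or DKO replicate 1 (0.0938).

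In 5 cases the libraries of 2 experiments lay on opposite sides of their controls, and the difference was not tested, because the experiments were fitted apart. XRCC4 KO against WT gave DCLRE1C at -0.50 at 5 days and 0.20 at 3 days, POLL at -0.12 and 0.17, and POLM at 0.37 and -0.77, of which only POLM at 3 days was called. Loss of p53 gave LIG4 at -0.36 in MCF10A and 0.09 in RPE-1, and XRCC5 at 0.35 and -0.11, of which LIG4 in RPE-1 was not called. RPE-1 also had ATRi, where MCF10A did not.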

How the results depend on the processing

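Of the 71 calls on single members, 22 held in every alternative run for them, 28 were lost only on FPKM and 20 when a library was left out. Number of members called, beside the main number: fitting only the groups compared gave 0 for WT at 3 days (from 1), 1 at 5 days (3), 0 for CDK1i (3), 3 for cGAS KO (1) and 1 for STING KO (2). DESeq2 gave 2 for cGAS KO, as did no filter on low counts, and 1 for STING KO. It gave 9 for p53 KO (10), 5 for XRCC4 KO at 3 days (6) and 6 for DKO against XRCC4 KO (7). ATRi in DKO had 7 with it (8), the ATRi difference 6 (8), the XRCC4 by p53 difference 4 (5) and RPE-1 p53 KO 5 (7). In the remaining comparisons DESeq2 gave the main number. On FPKM with pseudocount 1, pseudocount 0.1 and no filter, the numbers were 0, 0, 0 for WT at 3 days, 1, 1, 1 at 5 days, 1, 1, 0 for CDK1i, 0, 0, 0 for cGAS KO, 1, 1, 1 for STING KO, 5, 5, 5 for p53 KO (10), 4, 4, 3 for ATRi in DKO (8), 2, 2, 1 for the ATRi difference (8) and 2, 2, 2 for the XRCC4 by p53 difference (5). ATRi in XRCC4 KO had 2 with either pseudocount (1). FPKM with no filter gave 0 for XRCC4 KO at 5 days (2), 2 at 3 days (6), 3 for RPE-1 p53 KO (7) and 1 for RPE-1 WT cGAS (4). These numbers stand without the share of all genes called in each setting, and the cause of the differences was not tested.

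Leaving out each library in turn gave 0 to 0 members for WT at 3 days, 1 to 3 at 5 days, 0 to 0 between them, 0 to 3 for CDK1i, 0 to 0 for cGAS KO, 0 to 1 for STING KO, 1 to 2 for XRCC4 KO at 5 days, 9 to 10 for p53 KO, 5 to 7 for XRCC4 KO at 3 days, 1 to 2 for ATRi in XRCC4 KO, 6 to 7 and 3 to 4 for DKO against XRCC4 KO and p53 KO, 7 to 8 for ATRi in DKO, 6 to 8 and 4 to 6 for the differences, 5 to 7 for RPE-1 p53 KO and 4 to 4 for RPE-1 WT cGAS. A lone library left in a group is assumed to vary like the others. Over all genes too, fewer were called than in the main fit whichever library was left out. Exceptions were some fits of CDK1i and of 5 against 3 days. A lower number of members in these fits therefore does not single the members out.

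Directions reversed only on FPKM (pseudocount 1, 0.1, no filter): DCLRE1C in XRCC4 KO at 3 days (-1.22, -1.41), under ATRi in XRCC4 KO (1.54, 1.76) and DKO (-0.26, -0.28, -0.26) and for the ATRi difference (-1.80, -2.04, -1.80), XRCC6 for that difference (0.000935, 0.000969, 0.000935), TP53BP1 in DKO against p53 KO (-0.43, -0.45, -0.43) and RPE-1 p53 KO (0.17, 0.18, 0.17), and XRCC5 in RPE-1 p53 KO (0.16, 0.16, 0.16). FPKM moved the median of all genes by -0.18 to 0.25, over 0.1 in 8 of 17 comparisons. It moved the share of called genes that were higher by over 10 points in 12 of 17, for example from 49 to 66.1% in p53 KO, 50.6 to 30.2% in XRCC4 KO at 3 days, 44.1 to 66.7% under ATRi in DKO and 51.3 to 76.9% in RPE-1 p53 KO.

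The replicate numbers were not taken as pairs: deviations of same-numbered libraries correlated at -0.27 to 0.44 in the first part (7 of 21 pairs of groups over 0.1), -0.05 to 0.06 in the second and -0.02 to 0.03 in the third. With the replicate block every comparison kept its number of called members, among them 1 for WT at 3 days, 3 at 5 days, 10 for p53 KO and 7 for RPE-1 p53 KO. Depth limits XRCC4, NHEJ1 and DCLRE1C most, and the spread of the first part limits all its members.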
